A study of Mus musculus with 8 samples.

Results

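The genes described here make cholesterol and long-chain fatty acids, and 24 of 29 listed genes were measured in spinal cords of mice lacking *Nfix*. They were the genes of the isoprenoid and sterol pathway, of fatty acid synthesis and of their control by sterol regulatory element binding proteins (SREBPs) that had a transcript cluster with 1 gene symbol in the platform annotation. A transcript cluster is a set of array probes assigned to 1 transcribed region, and where a symbol had several clusters the brightest on average was taken, out of 30176 symbols in all. *Tm7sf2*, *Msmo1*, *Srebf1* and *Scd2* shared their clusters with other symbols and *Acat2* was listed for no cluster, so these 5 were not analysed here. The arrays came from 4 *Nfix*-/- and 4 *Nfix*+/+ embryos at E14.5, all C57Bl/6J and from crosses of heterozygous parents. The study describes its controls as wild-type littermates. Each sample was the RNA of a whole spinal cord, without treatment. The allele was absent from every cell of the *Nfix*-/- embryos rather than from a chosen cell type. The labels give 4 biological replicates of each genotype, all used here, while the study counts fewer animals. They give neither litter nor embryo sex, and the p-values measure the spread between these 8 arrays.

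Cholesterol is made from acetyl-CoA through mevalonate, isoprenoid diphosphates, squalene and lanosterol. When membrane sterol is low, the carrier SCAP moves SREBPs from the endoplasmic reticulum to the Golgi, where they are cut to release a transcription factor, and INSIG proteins hold SCAP back when sterol is high. SREBP2 mainly drives the sterol enzymes and SREBP1 mainly those of fatty acids. The developing nervous system makes most of its own cholesterol, for growing axon membranes first and for myelin later.

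*Nfix* itself was at log2 signals of 8.90, 8.88, 8.83 and 8.81 in *Nfix*-/- and of 9.36, 9.18, 9.25 and 9.19 in *Nfix*+/+, which matches the labels (log2 difference -0.39, standard error 0.0544, adjusted p = 0.0024 from limma). The deposited values are log2 signals, on which 1 unit is a doubling, and all differences are *Nfix*-/- minus *Nfix*+/+. At the cut-offs of the study more clusters were lower than higher in *Nfix*-/- here, the other way round from the directions the study gives, and the directions here rest on the labels and on the level of *Nfix*. The cut for dim clusters was the 95th percentile of the negative-control probe sets of each array, at 7.27 to 7.59. *Nfix*-/- replicate 4 and *Nfix*+/+ replicate 2 stood apart, with negative-control medians of 4.60 and 4.88 against 4.33 to 4.49 in the others. Over the 11778 clusters above the cut on at least 4 arrays, differences had a median of 0.09, and 83.9% of them were above 0. After cyclic loess, which evens out differences between arrays that depend on signal strength, that median was -0.01 and 47.5% were above 0. The deposited values of bright genes carried a general shift towards *Nfix*-/-, of a kind that cyclic loess removes by design. Medians of the positive-control probe sets were also apart, at 8.72 to 8.74 in *Nfix*-/- and 8.60 to 8.68 in *Nfix*+/+. The cause of the shift was not tested.

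Of the 24 genes, 2 rose in *Nfix*-/- spinal cord at an adjusted p under 0.05 and none fell. The genes that rose were *Idi1*, which isomerises isopentenyl diphosphate, and *Scd1*, the desaturase that makes monounsaturated fatty acids. This is 8.33% of the genes, and 11.5% of all 65956 clusters were higher by the same test. Among clusters above the cut on at least 4 arrays 14.1% were higher, so the share was no larger than the background. For the count of 0 lower, the background was 10.5% of all clusters and 0.416% of those above the cut. At an unadjusted p under 0.05, 4 genes were higher, or 16.7%, against 20.2% of all clusters and 30.3% of those above the cut, and none was lower, against 16.5% and 1.15%. The methods' unpaired test of each gene, corrected for false discovery, called 4 genes higher and 1 lower, against 11.2% and 8.81% of all clusters. Its shares among clusters above the cut, where 21 of the 24 genes lay, were not computed. Neither *Idi1* nor *Scd1* passed after cyclic loess, where none of the 24 was higher and 1, *Fdft1*, was lower. The backgrounds on that scale were 10.0% higher and 10.3% lower over all clusters, and 3.24% and 2.32% over those above the cut.

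Differences were small throughout. The median over the 24 genes was 0.07, against 0.02 over all clusters and 0.09 over those above the cut. Differences were above 0 in 20 genes and below 0 in 4. Among all clusters 55.1% were above 0, and 83.9% among those above the cut, where 21 of the 24 genes lay. After cyclic loess the median over the 24 genes was -0.02, with 5 differences above 0 and 19 below. The shares above 0 were then 48.2% of all clusters and 47.5% of those above the cut. The largest rise was 0.30 for *Scd1* and the largest negative difference was -0.08 for *Fdft1*. No 95% confidence interval from limma reached 1.5-fold in either direction, the cut-off of the study, which 0.791% of all clusters passed upwards and 1.26% downwards at an adjusted p under 0.05. The highest upper bound was 1.36-fold for *Scd1* and the lowest lower bound was 0.875-fold for *Sc5d*, without adjustment for the number of genes. In whole cords, fewer cells of a type and less RNA per cell cannot be told apart.

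**Figure D1:**
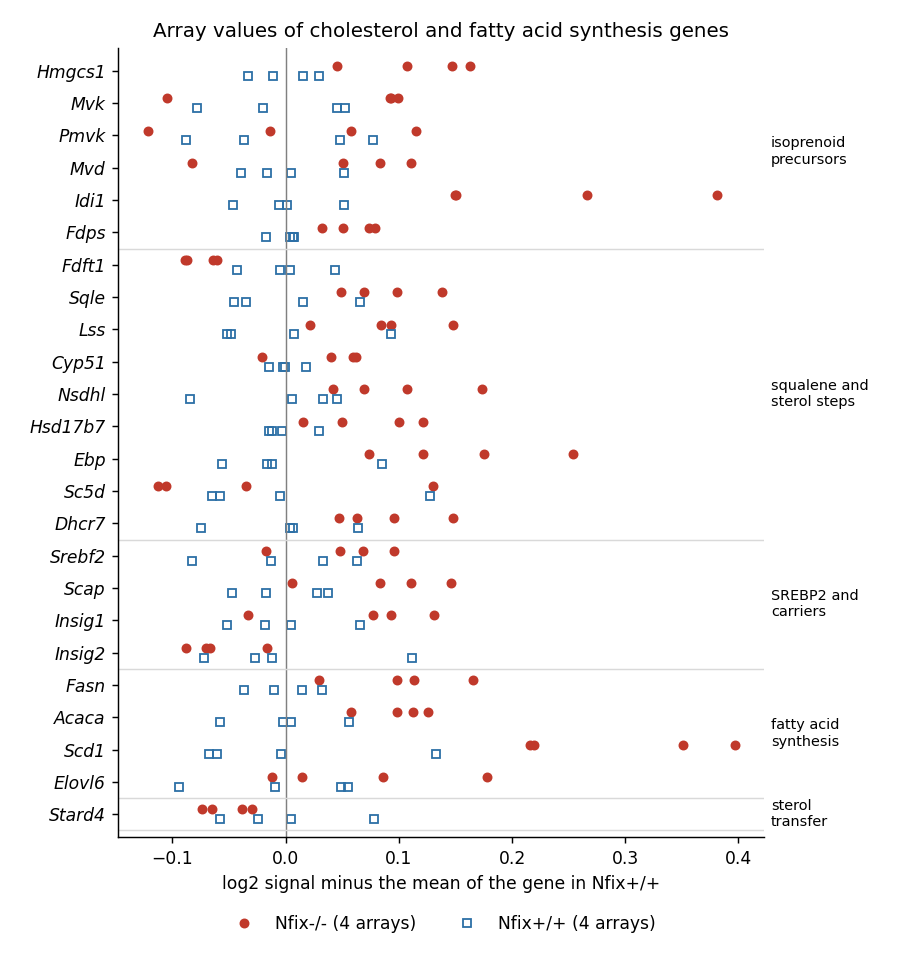
Log2 signal of each of the 24 genes in every array, as the difference from the mean of that gene in *Nfix*+/+ (horizontal axis), with filled circles for the 4 *Nfix*-/- arrays and open squares for the 4 *Nfix*+/+ arrays. The circles of *Idi1* and *Scd1* lie farthest to the right of their squares, and in 18 of the 24 genes the symbols of the 2 genotypes overlap.

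The genotypes did not overlap in 6 of the 24 genes. *Hmgcs1*, *Idi1*, *Fdps*, *Acaca* and *Scd1* were higher in every *Nfix*-/- array than in any *Nfix*+/+ array, and *Fdft1* was lower in every *Nfix*-/- array. The 5 higher genes are 20.8% of the genes, and 16.1% of all clusters and 28.1% of clusters above the cut were apart in this direction. For genes apart and lower the backgrounds were 12.0% and 1.10%.

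The enzymes from acetyl-CoA to farnesyl diphosphate all had differences above 0 in deposited values, and 1 of 6 measured genes rose. Of clusters above the cut, where all 6 lay, 83.9% had differences above 0 and 14.1% were higher. After cyclic loess 1 of the 6 genes had a difference above 0 and 5 below, at a median of -0.04, and none was called. *Idi1* had log2 signals of 7.64, 7.76, 7.64 and 7.87 in *Nfix*-/- and of 7.54, 7.49, 7.50 and 7.45 in *Nfix*+/+. The lowest *Nfix*-/- array lay above the highest *Nfix*+/+ array, and the widest spread was among the *Nfix*-/- arrays, where replicate 4 was highest. Its log2 difference was 0.24, or 1.18-fold (standard error 0.062, adjusted p = 0.028 from limma). After cyclic loess it was 0.16 (standard error 0.0612, adjusted p = 0.103 from limma). The call was also lost without *Nfix*-/- replicate 2 (adjusted p = 0.0734), without *Nfix*+/+ replicate 3 (adjusted p = 0.0625) and without *Nfix*+/+ replicate 4 (adjusted p = 0.0763, all from limma), while the difference stayed between 0.19 and 0.27 over all 8 omissions of 1 array.

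*Hmgcs1*, the cytosolic synthase that condenses acetoacetyl-CoA with acetyl-CoA, had 10.92, 11.03, 10.98 and 11.02 in *Nfix*-/- and 10.89, 10.90, 10.86 and 10.84 in *Nfix*+/+. The arrays of the genotypes did not overlap, but the difference of 0.12 did not pass the test (95% interval 0.01 to 0.22, adjusted p = 0.099 from limma) and was -0.01 after cyclic loess. *Fdps*, which makes farnesyl diphosphate, had 9.08, 9.03, 9.07 and 9.05 in *Nfix*-/- and 9.00, 9.01, 9.01 and 8.98 in *Nfix*+/+. Its arrays were apart because the spread was narrow, and the genotypes differed by 0.06 (standard error 0.0386, limma adjusted p = 0.308). Both genes were called by the methods' unpaired test (adjusted p = 0.0432 and 0.0248 over all clusters). *Mvk*, mevalonate kinase, had 8.17, 8.17, 8.17 and 7.97 in *Nfix*-/- and 8.12, 7.997, 8.13 and 8.05 in *Nfix*+/+, so that replicate 4 of *Nfix*-/- fell below every *Nfix*+/+ array. Phosphomevalonate kinase (*Pmvk*) and mevalonate decarboxylase (*Mvd*) likewise had their lowest value in that array, at 8.01 and 8.21, and their differences were 0.01 and 0.04.

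The promoters of these genes were read from RefSeq (GRCm38.p6) to show what the genes share in sequence. Windows from 250 bases before to 50 after a transcription start were at hand for 23 of the 29 listed genes, 31 windows in all, and *Fdps*, *Fdft1*, *Sqle*, *Scd1*, *Scd2* and *Stard4* had no entry. The windows shown belong to *Idi1*, the only gene called that had one, to *Hmgcs1*, the only gene with a match to the sterol regulatory element, and to *Mvk*, which held the most CCAAT boxes. Capitals mark the sterol regulatory element TCACNCCAC, the element SREBPs bind, and the CCAAT box, where NF-Y acts beside SREBPs, on either strand (CCAAT or ATTGG). The sequences run 5′ to 3′ on the strand of the gene.
Idi1, chr13:8885356-8885655, + strand: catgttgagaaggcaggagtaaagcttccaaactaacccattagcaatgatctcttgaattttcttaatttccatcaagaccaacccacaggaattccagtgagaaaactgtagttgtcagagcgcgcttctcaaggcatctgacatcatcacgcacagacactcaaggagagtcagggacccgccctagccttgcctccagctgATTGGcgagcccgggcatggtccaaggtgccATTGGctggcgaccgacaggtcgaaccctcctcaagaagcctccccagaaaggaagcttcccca
Hmgcs1, chr13:119690101-119690400, + strand: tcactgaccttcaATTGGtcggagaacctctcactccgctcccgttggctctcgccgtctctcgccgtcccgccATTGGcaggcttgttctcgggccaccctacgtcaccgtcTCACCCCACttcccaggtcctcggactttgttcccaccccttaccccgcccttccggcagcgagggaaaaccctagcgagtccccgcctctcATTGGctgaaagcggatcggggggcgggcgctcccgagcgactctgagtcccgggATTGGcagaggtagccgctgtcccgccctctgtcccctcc
Mvk, chr5:114444019-114444318, + strand: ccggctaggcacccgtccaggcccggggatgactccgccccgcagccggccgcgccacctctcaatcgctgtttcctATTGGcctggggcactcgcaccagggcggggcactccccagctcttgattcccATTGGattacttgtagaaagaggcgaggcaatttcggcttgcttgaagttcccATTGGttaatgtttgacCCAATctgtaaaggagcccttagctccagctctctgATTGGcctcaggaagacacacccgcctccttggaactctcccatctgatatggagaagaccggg
The *Idi1* window held 2 CCAAT boxes, the *Hmgcs1* window 4 and 1 sterol regulatory element, and the *Mvk* window 5.

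A CCAAT box on either strand was found in 20 of the 31 windows (64.5%) and in 37.4% of all 32851 windows in the table. The sterol regulatory element matched in 1 window of these genes (3.23%) and in 1.24% of all, and the E-box TCACGTGA in none of theirs and in 0.974% of all. The full NFI palindrome, in which the half-site TTGGC is followed after a gap by its reverse complement, was in none of the 31 windows and in 0.0365% of all. The half-site alone was in 23 windows (74.2%) against 46.7% of all, but 21 of its 36 matches overlapped a CCAAT box. These are matches of letters in a short window and say nothing of binding.

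Among the 9 measured enzymes from squalene to cholesterol none passed the test, at a median difference of 0.09, with 7 differences above 0 and 2 below. Of clusters above the cut, where 8 of the 9 lay, 83.9% had differences above 0. After cyclic loess 3 of the 9 genes had differences above 0 and 6 below, at a median of -0.01. *Fdft1*, squalene synthase, had 9.06, 9.04, 9.06 and 9.04 in *Nfix*-/- and 9.13, 9.08, 9.12 and 9.17 in *Nfix*+/+. Every *Nfix*-/- array was below every *Nfix*+/+ array, opposite to the general shift of bright clusters. The difference was -0.08 in the deposited values (95% interval -0.17 to 0.02, adjusted p = 0.217 from limma). It was -0.18 after cyclic loess (standard error 0.0424, adjusted p = 0.0195 from limma) and -0.18 after quantile normalization (adjusted p = 0.0495). By the methods' unpaired test on the deposited values it also passed (adjusted p = 0.0433), and after median scaling it did not (adjusted p = 0.618 from limma). Its neighbours in the pathway, *Fdps* before it and *Sqle* after it, had deposited differences of 0.06 and 0.09, and -0.05 and -0.01 after cyclic loess.

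*Sqle*, squalene epoxidase, had 8.93, 8.89, 8.97 and 8.91 in *Nfix*-/- and 8.79, 8.90, 8.80 and 8.85 in *Nfix*+/+, where only replicate 2 of *Nfix*+/+ reached into the *Nfix*-/- range (difference 0.09, adjusted p = 0.199 from limma). Lanosterol synthase (*Lss*) and lanosterol demethylase (*Cyp51*) had differences of 0.09 and 0.04. *Nsdhl* and *Hsd17b7*, which act together to remove methyl groups from the sterol ring, had 0.10 and 0.07, and *Dhcr7*, the reductase of a last step to cholesterol, had 0.09. *Sc5d*, a sterol desaturase, varied most in this group. Its signals were 8.58, 8.66, 8.59 and 8.83 in *Nfix*-/- and 8.69, 8.83, 8.63 and 8.64 in *Nfix*+/+. The highest array of each genotype was the array that stood apart, and the difference was -0.03 (95% interval -0.19 to 0.13).

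*Ebp*, a sterol isomerase encoded on the X chromosome like *Nsdhl*, had the lowest p in this group. It had 6.24, 6.37, 6.29 and 6.19 in *Nfix*-/- and 6.10, 6.10, 6.20 and 6.06 in *Nfix*+/+. Replicate 4 of *Nfix*-/- lay just below replicate 3 of *Nfix*+/+, and the difference of 0.16 did not pass the test (95% interval 0.03 to 0.28, adjusted p = 0.0776 from limma). With the mean of the Y-linked genes *Kdm5d*, *Eif2s3y* and *Uty* as a covariate, the differences of *Ebp* and *Nsdhl* were 0.11 and 0.07. *Ebp*, *Insig2* and *Stard4* were above the cut for dim clusters on 0 arrays, which does not show that they were unexpressed. The other 21 genes were above it on at least 7 of the 8 arrays.

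**Figure D2:**
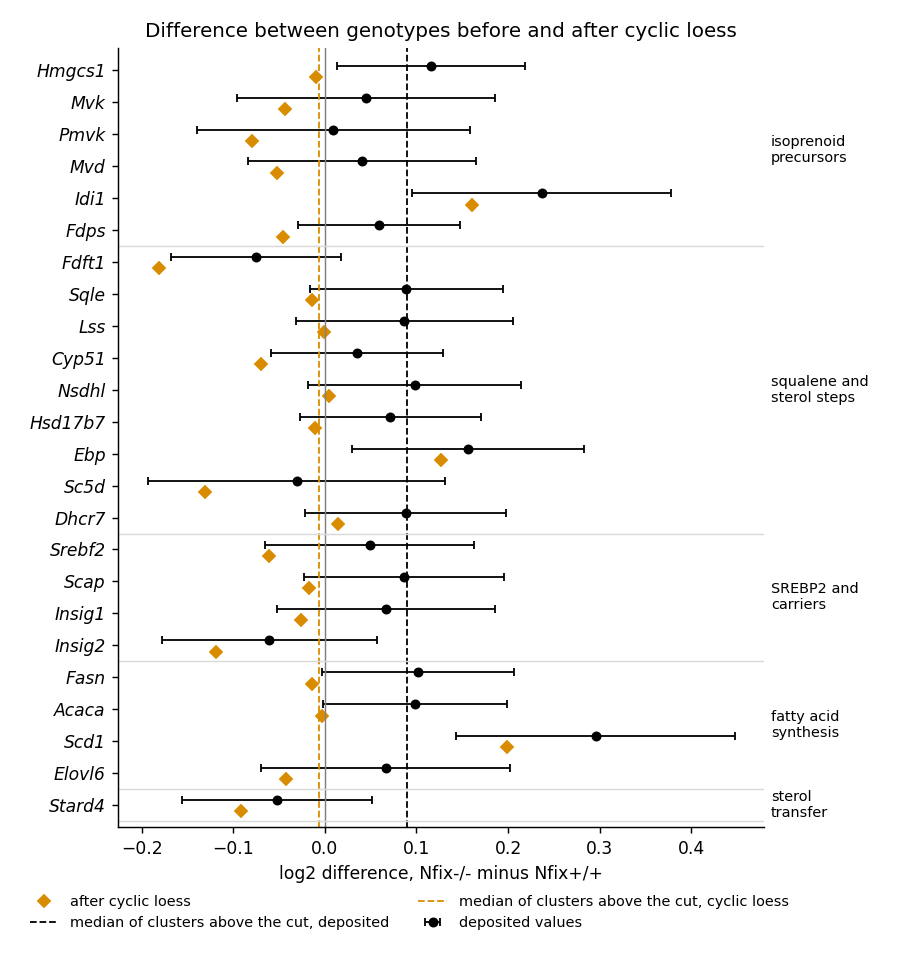
Log2 difference, *Nfix*-/- minus *Nfix*+/+, of the 24 genes (horizontal axis), with black circles for deposited values, bars for their 95% confidence intervals from limma, and orange diamonds after cyclic loess. Dashed lines are the medians over 11778 clusters above the cut, at 0.09 for deposited values and -0.01 after cyclic loess. Of the diamonds, 5 lie above 0, and those of *Scd1*, *Idi1* and *Ebp* lie farthest right.

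The regulators of the pathway did not pass the test. *Srebf2*, which encodes SREBP2, had 9.45, 9.48, 9.43 and 9.37 in *Nfix*-/- and 9.42, 9.30, 9.45 and 9.37 in *Nfix*+/+, and the genotypes overlapped over most of their range (difference 0.05, 95% interval -0.07 to 0.16, adjusted p = 0.527 from limma). *Scap* had 8.97, 9.00, 8.94 and 8.86 in *Nfix*-/- and 8.88, 8.81, 8.89 and 8.84 in *Nfix*+/+. The 3 highest arrays were *Nfix*-/-, with a difference of 0.09 (95% interval -0.02 to 0.20, adjusted p = 0.229 from limma). *Insig1*, itself a target of SREBPs, had 8.37, 8.35, 8.40 and 8.24 in *Nfix*-/- and 8.22, 8.34, 8.28 and 8.25 in *Nfix*+/+. Its overlap again came from replicate 4 of *Nfix*-/-, and the difference was 0.07 (95% interval -0.05 to 0.19, adjusted p = 0.392 from limma). *Insig2* had 6.96, 6.98, 6.98 and 7.03 in *Nfix*-/- and 7.04, 7.16, 7.02 and 6.98 in *Nfix*+/+, a difference of -0.06 (95% interval -0.18 to 0.06, adjusted p = 0.436 from limma). In deposited values 3 of the 4 differences were above 0. Of clusters above the cut, where 3 of the 4 genes lay, 83.9% had differences above 0 and 14.1% were higher. After cyclic loess all 4 differences were below 0, between -0.12 and -0.02, and none passed. On that scale 48.2% of all clusters and 47.5% of those above the cut had differences above 0.

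Of the 4 measured genes of fatty acid synthesis 1 rose, and all 4 differences were above 0 in deposited values. Of clusters above the cut, where all 4 lay, 14.1% were higher and 83.9% had differences above 0. After cyclic loess 1 of the 4 genes had a difference above 0 and 3 below, and none was called. *Scd1* had 8.58, 8.76, 8.58 and 8.71 in *Nfix*-/- and 8.49, 8.29, 8.36 and 8.30 in *Nfix*+/+. The genotypes did not overlap, and *Nfix*+/+ replicate 1 was the nearest to the *Nfix*-/- arrays. The log2 difference was 0.30, or 1.23-fold (standard error 0.0666, adjusted p = 0.0161 from limma), and it passed without each array in turn, at 0.26 to 0.34. After cyclic loess it was 0.20 (standard error 0.062, adjusted p = 0.0554 from limma). A further cluster annotated as *Scd1* was above the cut on 0 arrays and had 5.72 ± 0.176 in *Nfix*-/- and 5.73 ± 0.0899 in *Nfix*+/+ (SD, n = 4 each), a difference of -0.01. With the mean of both clusters *Scd1* had a difference of 0.14 and no longer passed (adjusted p = 0.106 from limma).

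Acetyl-CoA carboxylase (*Acaca*), which commits acetyl-CoA to fatty acids, had 8.80, 8.87, 8.84 and 8.85 in *Nfix*-/- and 8.74, 8.80, 8.68 and 8.75 in *Nfix*+/+. The arrays were just apart, and the difference of 0.10 did not pass (95% interval -0.0015 to 0.20, adjusted p = 0.141 from limma). Fatty acid synthase (*Fasn*) had 10.08, 10.13, 10.06 and 9.99 in *Nfix*-/- and 10.00, 9.93, 9.98 and 9.95 in *Nfix*+/+. Only replicate 4 of *Nfix*-/- fell within the *Nfix*+/+ range (difference 0.10, adjusted p = 0.146 from limma). The elongase *Elovl6* had a difference of 0.07 and the sterol carrier *Stard4* one of -0.05. After cyclic loess *Acaca* and *Fasn* were at -0.0029 and -0.01.

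Averaged within an array, the 24 genes lay at 8.46 to 8.51 in *Nfix*-/- and at 8.39 to 8.42 in *Nfix*+/+, without overlap. The mean over the 11778 clusters above the cut was likewise apart, at 8.76 to 8.82 in *Nfix*-/- and 8.66 to 8.71 in *Nfix*+/+. Taken relative to those clusters, the 24 genes were at -0.35 to -0.28 in *Nfix*-/- and at -0.31 to -0.25 in *Nfix*+/+, where the genotypes overlapped. After cyclic loess the mean over the 24 genes was 8.41 to 8.46 in *Nfix*-/- and 8.44 to 8.48 in *Nfix*+/+. *Nfix*-/- replicate 4 was the lowest of its genotype in 11 of the 24 genes and the highest in 7, and *Nfix*+/+ replicate 2 was lowest in 10 and highest in 9. The arrays that stood apart were thus at either end in many genes, but other arrays also ranked unevenly. *Nfix*-/- replicate 2 was highest in 11 and lowest in 2, and *Nfix*-/- replicate 1 was lowest in 9 and highest in 3. Without *Nfix*-/- replicate 4 the median difference was 0.09, and without *Nfix*+/+ replicate 2 it was 0.07, with *Idi1* and *Scd1* called in both cases.

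**Figure D3:**
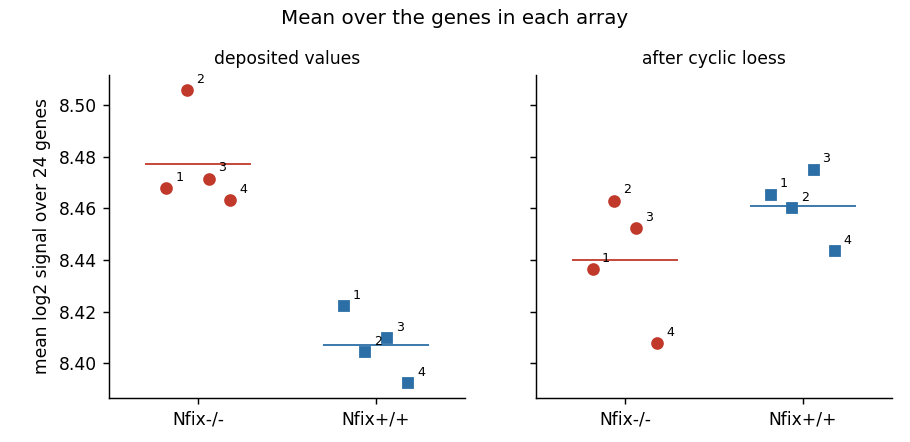
Mean log2 signal over the 24 genes in each array (vertical axis, not starting at 0) for the 4 *Nfix*-/- arrays (left, circles) and the 4 *Nfix*+/+ arrays (right, squares), numbered by replicate, with lines at the genotype means. In deposited values every *Nfix*-/- array is above every *Nfix*+/+ array, and after cyclic loess the genotypes overlap, with *Nfix*-/- replicate 4 lowest at 8.41.

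**Figure D4:**
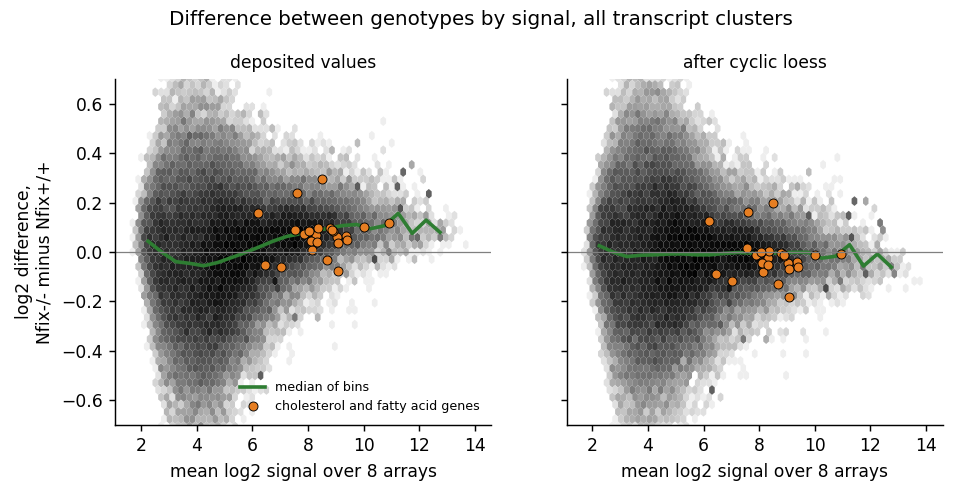
Log2 difference, *Nfix*-/- minus *Nfix*+/+ (vertical axis), against the mean log2 signal over the 8 arrays for all 65956 clusters (grey, darker where denser, on a log scale of counts, with clusters beyond the axis limits not shown), with the median in bins of signal (green line) and the 24 genes (orange). In deposited values the line runs from -0.06 at signals of 4.0 to 4.5 to 0.11 at 9.0 to 9.5, and the genes lie around it, while after cyclic loess it stays near 0 up to a signal of 10.

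Other genes of lipid metabolism, from a list of 85 of which 74 were measured, showed 11 higher and none lower in *Nfix*-/-. The higher genes are 14.9%, against 11.5% of all clusters and 14.1% of those above the cut, where 54 of the 74 genes lay. At an unadjusted p under 0.05, 29 were higher and 2 lower. The backgrounds were 20.2% and 16.5% of all clusters, and 30.3% and 1.15% of those above the cut. By the methods' test 20 were higher and 1 lower, against 11.2% and 8.81% of all clusters. For clusters above the cut, where 54 of the 74 genes lay, the shares by that test were not computed, so these counts have no matched background. The median difference was 0.09, as over clusters above the cut. After cyclic loess 4 were higher and 2 lower, against backgrounds of 10.0% and 10.3% of all clusters, and 3.24% and 2.32% of those above the cut. Of 8 measured genes of SREBP processing and sterol-regulated degradation 3 rose, at a median of 0.15. They were *Erlin2*, which encodes an endoplasmic reticulum protein that binds cholesterol and takes part in sterol-regulated degradation, *Aup1*, a lipid droplet protein of the same degradation route, and *Fbxw7*, the ubiquitin ligase subunit that marks nuclear SREBPs for degradation. *Erlin2* had 8.53, 8.59, 8.55 and 8.46 in *Nfix*-/- and 8.24, 8.30, 8.27 and 8.25 in *Nfix*+/+. The genotypes were clearly apart, 0.27 higher in *Nfix*-/- (standard error 0.0454, limma adjusted p = 0.0049), and *Erlin2* still passed after cyclic loess at 0.18 (adjusted p = 0.0284 from limma). *Aup1* rose by 0.21 and *Fbxw7* by 0.18, and neither passed after cyclic loess (adjusted p = 0.138 and 0.162 from limma). *Fbxw7* also failed to pass without *Nfix*-/- replicate 2, 3 or 4 and without *Nfix*+/+ replicate 3 or 4 (highest adjusted p = 0.0757 from limma).

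Of 33 other genes of fatty acid and glycerolipid synthesis 4 rose and none fell, namely *Fabp5*, *Hsd17b12*, *Fads3* and the mitochondrial citrate carrier *Slc25a1*. The 4 are 12.1% of the list, against 11.5% of all clusters and 14.1% of those above the cut. For genes lower the backgrounds were 10.5% and 0.416%. *Fabp5*, a fatty acid binding protein, had 8.06, 7.91, 7.97 and 8.07 in *Nfix*-/- and 7.62, 7.72, 7.59 and 7.73 in *Nfix*+/+. Its difference of 0.34, or 1.26-fold, was the largest of all 98 lipid genes measured (standard error 0.0575, adjusted p = 0.00538 from limma), and after cyclic loess it was 0.25 (adjusted p = 0.0156 from limma). *Hsd17b12*, of the elongation cycle, rose by 0.21, *Fads3*, a desaturase of the FADS family, by 0.23 and *Slc25a1* by 0.16, and none of these passed after cyclic loess.

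Of 7 other genes of isoprenoid and sterol synthesis *Dhdds*, which elongates farnesyl diphosphate to dolichol precursors, rose by 0.18 (adjusted p = 0.0202 from limma), while *Fntb* was at 0.14 and *Pdss2* at -0.10. *Dhdds* did not pass after cyclic loess (0.09, adjusted p = 0.173 from limma), and without 1 array it passed in 3 of 8 cases, without *Nfix*-/- replicate 4, *Nfix*+/+ replicate 2 or *Nfix*+/+ replicate 4. Of 16 genes of sterol uptake, export and turnover the lysosomal sterol carrier *Npc2*, above the cut on 0 arrays, rose by 0.18 (adjusted p = 0.0317 from limma). It did not pass after cyclic loess (0.12, adjusted p = 0.104) or median scaling (adjusted p = 0.0667, both from limma), and without 1 array it passed in 2 of 8 cases, without *Nfix*-/- replicate 4 or *Nfix*+/+ replicate 3. *Apoe*, an apolipoprotein made mainly by glial cells, had 8.69, 8.66, 8.75 and 8.62 in *Nfix*-/- and 8.87, 8.77, 8.83 and 8.83 in *Nfix*+/+. Every *Nfix*-/- array was lower, at a difference of -0.14 that did not pass in deposited values (adjusted p = 0.0602 from limma) and was -0.25 after cyclic loess (adjusted p = 0.0116 from limma). The sterol hydroxylase *Cyp27a1*, above the cut on 0 arrays, was at 0.26 (adjusted p = 0.0558) and passed after cyclic loess at 0.27 (adjusted p = 0.0403, both from limma). Of 10 genes of fatty acid oxidation *Acadm*, which oxidises medium-chain acyl-CoA, rose by 0.20 (adjusted p = 0.0121 from limma) and did not pass after cyclic loess (adjusted p = 0.0635). The nuclear receptor gene *Pparg*, above the cut on 0 arrays, was at 0.19, just past the threshold (adjusted p = 0.0493 from limma). Leaving out any 1 of the 8 arrays ended the call, at adjusted p between 0.0546 and 0.119, and after cyclic loess it was at 0.23 (adjusted p = 0.0192 from limma). *Hadhb* at 0.15 did not pass (adjusted p = 0.0586 from limma).

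**Figure D5:**
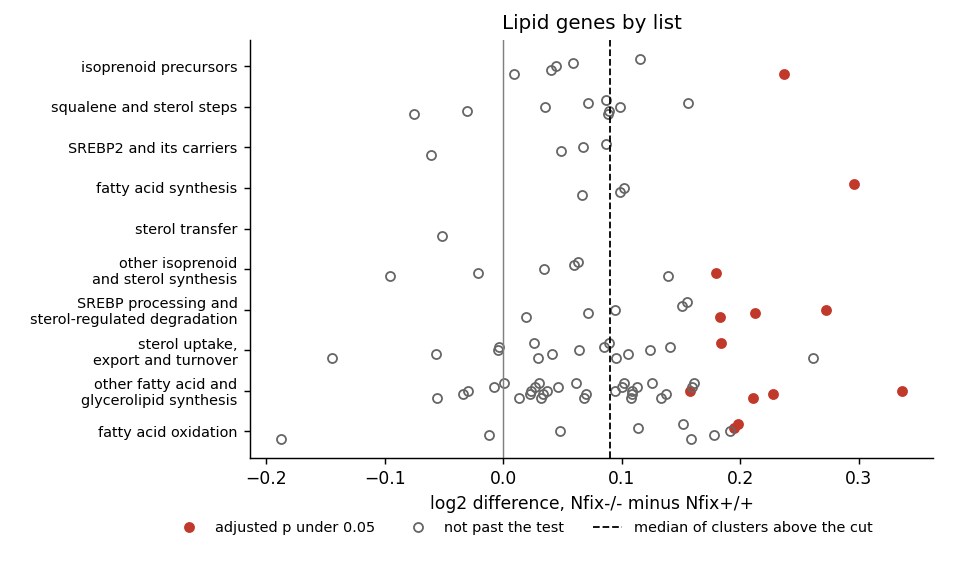
Log2 difference, *Nfix*-/- minus *Nfix*+/+ (horizontal axis), of the 98 measured lipid genes by list, with filled circles for genes at an adjusted p under 0.05 from limma and open circles for the others. The dashed line is the median of 0.09 over clusters above the cut. All 13 filled circles lie to the right of it, 2 of them in the lists of the 24 genes.

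Genes that mark cell types were measured in the same cords. As background for the calls, 11.5% of all clusters were higher and 10.5% lower, and 14.1% and 0.416% of those above the cut. After cyclic loess 10.0% of all clusters were higher and 10.3% lower, and 3.24% and 2.32% of those above the cut. Differences were then above 0 in 48.2% of all clusters and in 47.5% of those above the cut. Neuronal genes were bright in all arrays, with 10 of 10 above the cut on at least 4 arrays and a mean of 10.59 to 10.66 in *Nfix*-/- and 10.46 to 10.52 in *Nfix*+/+, and *Nefl*, *Nefm* and *Gap43* rose, by 0.23, 0.23 and 0.18. None of these 3 passed after cyclic loess. Of 8 genes of meninges and fibroblasts *Foxc1*, *Lum*, *Col3a1* and *Prrx1* rose, with list means of 8.19 to 8.34 in *Nfix*-/- and 8.03 to 8.14 in *Nfix*+/+, and of 8 of endothelium and mural cells *Cdh5* and *Emcn* rose, with means of 8.25 to 8.38 in *Nfix*-/- and 8.04 to 8.19 in *Nfix*+/+. Of these 6 genes all but *Col3a1* also passed after cyclic loess, but *Prrx1* and *Emcn* were above the cut on 0 arrays and *Lum* on 2. The other genes of both lists did not pass, and after cyclic loess each list had 5 differences above 0 and 3 below. Of 7 genes of the oligodendrocyte lineage *Ugt8a* rose, with means of 6.93 to 7.08 in *Nfix*-/- and 6.89 to 7.10 in *Nfix*+/+, and *Mbp*, a myelin gene, was above the cut on 0 arrays. *Ugt8a*, also above the cut on 0 arrays, did not pass after cyclic loess (adjusted p = 0.101 from limma). *Olig2* was at -0.25 (adjusted p = 0.0626) and was lower after cyclic loess at -0.34 (adjusted p = 0.0236, both from limma). None of 7 astrocyte genes passed, and of 8 progenitor genes *Hes5* fell by 0.46. For 7 genes of sensory ganglia or Schwann cells the means were 7.65 to 7.79 in *Nfix*-/- and 7.28 to 7.70 in *Nfix*+/+, and none passed, nor did any of 3 red blood cell genes. The differences of all 7 ganglion and Schwann cell genes were above 0, against 55.1% of all clusters and 83.9% of those above the cut. *Pmp2*, above the cut on 0 arrays, passed after cyclic loess at 0.27 (adjusted p = 0.0343 from limma). Of 7 microglial genes *C1qc* rose, and of 8 skeletal muscle genes *Myl1* and *Tnnt1* rose and *Myf5* fell, all dim, and *C1qc* and *Myl1* did not pass after cyclic loess. All 6 adipocyte genes and all 6 hepatocyte genes were above the cut on 0 arrays, and among the adipocyte genes *Ucp1* rose and *Adipoq* and *Lep* fell at those dim signals. The part of these cell types in the differences of the lipid genes was not tested.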

How the data were processed

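Whole spinal cords of 4 *Nfix*-/- and 4 *Nfix*+/+ embryos were hybridised to Affymetrix Mouse Transcriptome Arrays. With the Affymetrix Expression Console the authors ran a gene-level SST-RMA over all arrays and deposited 1 log2 value for each transcript cluster and array. These log2 values were used unchanged. Of 72688 rows, 6732 control probe sets were left out. Clusters were named from the platform annotation, in which 30638 carried 1 symbol, 2176 several and 33142 none.

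Genotypes were compared over 65956 clusters by lmFit and eBayes of limma 3.58.1 (R 4.3.3), with Benjamini-Hochberg adjustment over all of them. The study used an unpaired test with control of false discovery, called differences over 1.5-fold and took mm10 as the genome version. The fit was tested on simulated data. The 24 genes and all gene lists were chosen with earlier results of these data known. Values in every array were given for genes past the test among the 24 and for the SREBP regulators. They were also given for the gene of lowest p in each role, except *Stard4*, the only measured gene of sterol transfer. Up to 3 genes of lowest p were named from each further list, with values in every array only for *Erlin2*, *Fabp5* and *Apoe*. *Hmgcs1*, *Fdps*, *Fdft1*, *Mvk*, *Sqle*, *Sc5d*, *Acaca*, *Fasn*, *Slc25a1*, *Olig2*, *Pmp2* and *Mbp* were added after their values were seen. Alternatives covered the test, prior, array weights, each array left out, scaling, filters, the row for a symbol and covariates. Precision is limited by the 4 arrays of each genotype.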

Additional observations from a re-analysis of the deposited data

Results flagged for a closer look

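Across 80 sets of 4 arrays of a genotype, 3 held an array far from the remainder, where chance would flag about 1 set in 20. *Mvk* was at 7.97 in *Nfix*-/- replicate 4, against 8.17 in the other *Nfix*-/- arrays. *Fdps* was at 8.98 in *Nfix*+/+ replicate 4, against 9.00 to 9.01 in the other *Nfix*+/+ arrays. *Hsd17b12* was at 8.24 in *Nfix*-/- replicate 2, against 8.30 to 8.31 in the other *Nfix*-/- arrays.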

How the results depend on the processing

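Of the 24 genes, 4 were higher and 1 lower by the methods' test, none higher and 1 lower after quantile normalization and after cyclic loess, and 1 higher with the mean of rows per symbol or a Y-linked covariate. None was higher at a fold over 1.5. After cyclic loess without *Nfix*+/+ replicate 2 or without *Nfix*-/- replicate 4, settings added after seeing the data, 0 were higher and 1 lower. Leaving out 1 array gave 1 to 2 higher, and 1 without *Nfix*-/- replicate 2, *Nfix*+/+ replicate 3 or *Nfix*+/+ replicate 4. The median of 0.07 became 0.098 after median scaling, -0.0157 after quantile normalization and -0.0213 after cyclic loess, with -0.0305 and -2.1e-05 after cyclic loess without *Nfix*+/+ replicate 2 and without *Nfix*-/- replicate 4, and 0.0652 to 0.0943 without 1 array. Of the 74 further lipid genes, against 11 higher and 0 lower, 20 were higher and 1 lower by the methods' test, 3 and 1 after quantile normalization, 4 and 2 after cyclic loess, and 18 and 1 among clusters with 1 symbol. None was higher at a fold over 1.5. Of these genes 1 was lower with the trend and robust prior or the filter on dim clusters and 2 with array weights, and without 1 array 6 to 11 were higher and 0 to 1 lower. Over all clusters, against 7602 higher and 6918 lower, 522 and 829 passed at a fold over 1.5 and 2426 and 74 with the filter on dim clusters. There were 4799 higher with the Y-linked covariate and 2962 lower among clusters with 1 symbol, and without 1 array 4793 to 7484 were higher and 4865 to 7596 lower. The cause of these changes was not tested.

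With the replicate number as a block, 0 of the 24 genes and 6 of the 74 further genes were higher, and *Idi1* and *Scd1* no longer passed (adjusted p = 0.076 and 0.0597 from limma). The labels do not say whether the numbers pair the arrays. Deviations from the genotype mean of arrays with the same number correlated across clusters at 0.47, -0.15, 0.04 and -0.08. The highest correlation, 0.66, was between *Nfix*-/- replicate 4 and *Nfix*+/+ replicate 2, the arrays that stood apart. Those arrays also move the genotype means behind the other deviations, so this check cannot show whether arrays were paired. Signal over background limits *Ebp*, *Insig2* and *Stard4*, which were above the cut for dim clusters on 0 arrays.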
